A study of Arabidopsis thaliana with 12 samples.

Results

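The plastid genome of Arabidopsis thaliana is represented in the deposited count table by 133 genes of 33602, all those whose identifier starts with ATCG. They comprise 88 protein-coding genes, 37 transfer RNA genes and 8 ribosomal RNA genes, with both copies of each gene of the inverted repeat listed. Shoots of seedlings aged 6 days were sequenced as 12 libraries, with 3 in each of 4 groups. All seedlings had spent 3 days at 4 °C in the dark as seeds. They then grew at 21 °C on medium with 1% sucrose, under 16 h of light and 8 h of dark. The main comparison sets the mutant tfIIfα2 against the wild type labelled WTCol0, both prepared with a stranded total RNA kit that depletes plant ribosomal RNA. The remaining groups, the mutant tfIIfα1 and the wild type labelled WTCol3, came from a stranded kit for mRNA and serve only as a contrast. Both mutants are altered in a nuclear gene that encodes TFIIFα, 1 of the subunits of a basal factor of RNA polymerase II, and the labels do not say what kind of allele either is. Neither do they say whether replicates came from separate sowings, so p-values measure the spread between these libraries, which may be technical.

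Plastid genes are transcribed by a bacterial-type polymerase, whose core subunits rpoA, rpoB, rpoC1 and rpoC2 are themselves plastid genes and whose sigma factors are nuclear, and by phage-type polymerases that are nuclear as well. Most plastid genes are read as long transcripts that span several genes and are then cut, edited and stabilised by nuclear-encoded RNA-binding proteins, many of them pentatricopeptide repeat proteins. The genes fall into those for photosystem I (psa), photosystem II (psb), the cytochrome b6f complex (pet), the NDH complex of cyclic electron flow (ndh), the ATP synthase (atp), the plastid-encoded polymerase (rpo), the ribosome (rpl, rps, rrn) and transfer RNA (trn). The title of the series names nuclear genes for organellar RNA editing as the genes under study.

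The total RNA libraries held 33292996 to 37456773 counts. Plastid genes took 57.3%, 57.8% and 62.5% of them in the wild-type replicates 1, 2 and 3 and 59.5%, 62.5% and 59.7% in tfIIfα2. The groups overlapped: the mean was 1.39 percentage points higher in tfIIfα2, with an SD of 3.85 between the 3 pairs and the mutant higher in 2 of 3. The exact sign-flip permutation test over the pairs gave p = 0.75, where the smallest possible was 0.25, and without replicate 2 the difference was -0.278 points. Since the samples are bulk tissue, a change in the number of cells with many plastids and a change in plastid RNA per cell cannot be told apart. RAP74, as the deposited table names the TFIIF alpha gene, had 8.06, 7.58 and 8.06 CPM (counts scaled by TMM-adjusted library size) in wild type and 4.84, 6.03 and 5.78 in tfIIfα2 (log2 fold change -0.52 ± 0.11 SE, adjusted p = 0.017 in edgeR with the replicate number as a block, 0.066 without it). The 5 markers of photosynthetic leaf cells summed to 9224 to 16652 CPM in wild type and 9699 to 17342 in tfIIfα2, while 10 root markers summed to 0.369 to 0.969 and 1.78 to 2.83. All 10 root markers were thus near 0 but their sum was higher in each mutant library, and its part in the results was not tested.

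psbA, which encodes the D1 protein of photosystem II, and rbcL, the large subunit of Rubisco, took 60.1%, 61.4% and 60.0% of plastid counts in wild type and 62.0%, 62.9% and 62.9% in tfIIfα2. These groups did not overlap (exact permutation p = 0.1, the smallest that 3 against 3 allows). psbA had 345546, 351679 and 347725 plastid CPM in wild type and 353776, 368408 and 328949 in tfIIfα2, where plastid CPM stands for CPM with the plastid total of the library as its size. For rbcL the values were 255839, 262135 and 251898 against 265893, 261077 and 300363. Each gene alone overlapped between the groups, and neither passed the test (adjusted p = 0.98 and 0.67 in edgeR).

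By gene group, the share of the ndh genes was higher in every tfIIfα2 library and the shares of the rpl, rps and pet genes lower. The ndh genes took 2.47%, 2.45% and 2.72% of plastid counts in wild type and 3.10%, 2.85% and 2.80% in tfIIfα2. The rpl genes, for proteins of the large ribosomal subunit, took 1.33%, 1.18% and 1.3% against 1.04%, 0.953% and 0.988%. The rps genes, for the small subunit, took 1.99%, 1.90% and 2.01% against 1.81%, 1.70% and 1.76%, and the pet genes 2.58%, 2.51% and 2.70% against 2.44%, 2.44% and 2.42%. In these cases the groups did not overlap, and each exact permutation test gave p = 0.1, again the smallest possible. The shares depend on the plastid total, of which psbA and rbcL took more in tfIIfα2. In the edgeR fit to all counts the median log2 fold change was 0.23 for ndh, -0.27 for rpl, -0.07 for rps and 0.09 for pet genes. The direction for the pet genes thus depended on the scale. The psa share (10.1% and 10.4% on average), the psb share (45.7% and 44.6%), the atp share (5.35% and 5.02%), the rpo share (0.852% and 0.693%) and the trn share (0.706% and 0.679%) overlapped. Pair by pair, the psa share was higher in tfIIfα2 in 3 of 3 and the atp, rpo and trn shares in 0 of 3, each with a sign-flip p of 0.25 (exact permutation, the smallest possible).

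**Figure D1:**
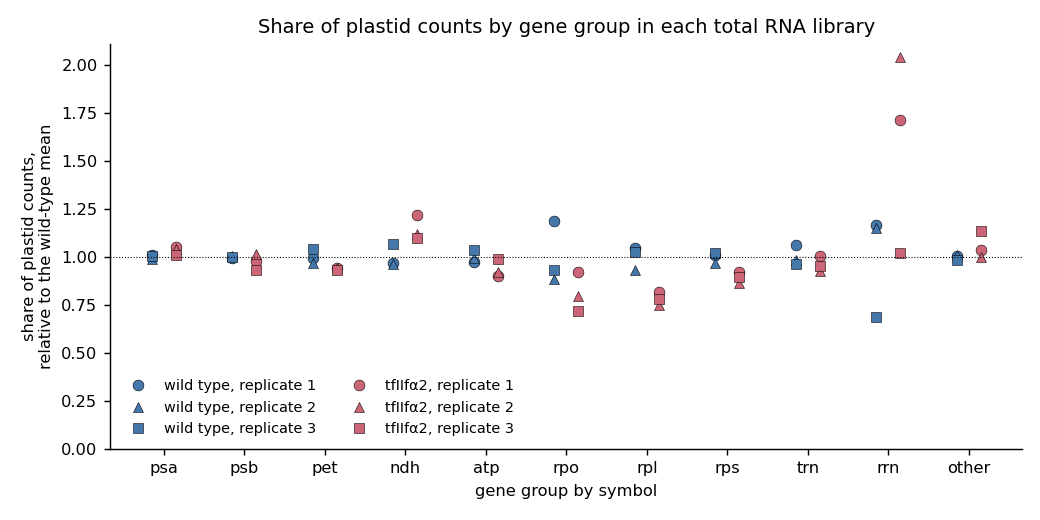
Share of plastid counts taken by each group of plastid genes (x axis, by symbol) in each total RNA library, relative to the wild-type mean of that group (y axis, no unit). Blue symbols are the 3 wild-type libraries and red symbols the 3 tfIIfα2 libraries, with circle, triangle and square for replicates 1, 2 and 3; the ndh symbols of tfIIfα2 lie above and the rpl, rps and pet symbols below all wild-type symbols, and the rrn points rest on 55 to 166 counts a library.

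Gene by gene, 124 of the 133 members had enough counts to be tested in total RNA. The 9 others were trnE, both copies of trnR in the repeat, and both copies of the 23S, 5S and 4.5S ribosomal RNA genes, with at most 10 counts in any library. Scaled to all counts, 5 plastid genes rose and 4 fell in tfIIfα2 (4.03% and 3.23% of those tested), against 9.56% higher and 9.18% lower over all 18863 genes tested by edgeR. Scaled to plastid counts alone, 4 rose and 17 fell (3.23% and 13.7%), against 3.9% higher and 15.9% lower over all genes on that scale. On both scales and in both directions the share of plastid genes called was below that of all genes. At an unadjusted p under 0.05 the counts were 10 and 17 on the first scale and 5 and 42 on the second. Groups that did not overlap per plastid count were found for 8 genes with tfIIfα2 higher and 44 with it lower (6.45% and 35.5%), against 5.09% and 21.9% over all genes.

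The scales differ by a constant: a fold change per plastid count was 0.15 log2 below that per all counts, and the median over all genes tested was -0.15 per plastid count. Below, a gene is called when it passed in edgeR with the block on the scale named, unless another setting is given. The calls need the replicate block. Without it, no plastid gene passed on either scale (lowest adjusted p = 0.063 and 0.06 in edgeR), with 7 and 14 higher and lower at an unadjusted p under 0.05 on the first scale and 5 and 35 on the second. On the first scale, calls over all 18863 genes dropped too, from 1803 higher and 1732 lower to 279 and 324. Over all genes, libraries with the same number deviated together from their group means (r = 0.638, 0.231 and 0.534 for replicates 1, 2 and 3), but over the 124 plastid genes they did not (r = -0.27, 0.00104 and 0.0409). Leaving out a pair also moved the counts: without replicate 1, 1 rose and 3 fell per all counts and 0 rose and 2 fell per plastid count. Without replicate 3, 18 rose and 4 fell on the first scale and 10 rose and 34 fell on the second. Without replicate 2 the counts were 2 and 3, and 2 and 8. The share called over all genes in these settings is not given here, so these counts are not set against it. Per plastid count, the median log2 fold changes over plastid and all genes were -0.2 and -0.12 without replicate 1. They were -0.18 and -0.11 without replicate 2, and -0.19 and -0.21 without replicate 3.

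**Figure D2:**
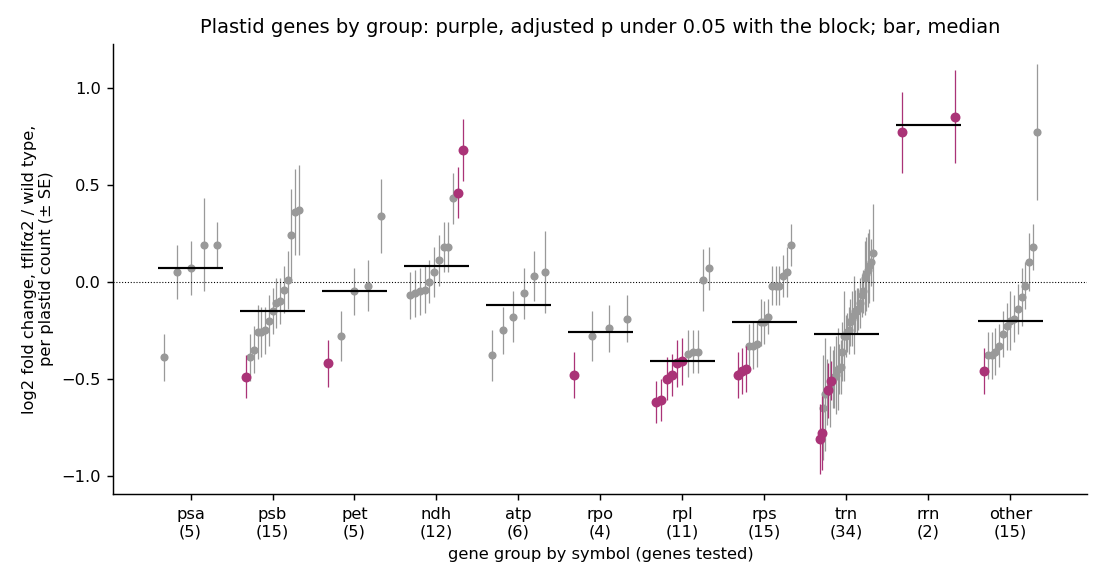
Fitted log2 fold change of each tested plastid gene, tfIIfα2 over wild type, per plastid count (y axis, ± SE), by gene group (x axis, with the number tested). Purple points passed an adjusted p of 0.05 in edgeR with the replicate block, none did without it, and black bars are group medians; 6 of 11 rpl genes are purple below 0 and 2 of 12 ndh genes purple above it.

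Among the ndh genes, ndhF, ndhI and ndhA stood highest. ndhF encodes a membrane subunit of the NDH complex and is read apart from the other ndh genes. It had 1352, 1600 and 1717 plastid CPM in wild type and 2872, 2373 and 2221 in tfIIfα2. All mutant libraries lay above all wild-type libraries, and the same-numbered libraries differed most in pair 1 and least in pair 3, by 1.09, 0.57 and 0.37 on the log2 scale. The fitted log2 fold change was 0.68 ± 0.16 (SE, adjusted p = 0.030) per plastid count and 0.82 ± 0.17 (adjusted p = 0.015) per all counts, in edgeR with the block. Without the block the adjusted p was 0.062 and 0.063. Its annotated gene overlaps ycf1 on the other strand, and the strand setting of the counting is not given in the sources used here. The shorter ycf1 entry, ATCG01000, had 359, 298 and 324 plastid CPM in wild type and 318, 236 and 218 in tfIIfα2.

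ndhI, whose product binds iron-sulfur clusters, had 1191, 1322 and 1473 plastid CPM in wild type and 1905, 1817 and 1736 in tfIIfα2. Its groups did not overlap, and it rose per plastid count (log2 0.46 ± 0.13 SE, adjusted p = 0.050, just under the threshold) and per all counts (0.60 ± 0.14, adjusted p = 0.023) in edgeR. The neighbouring ndhA, a membrane subunit whose gene holds an intron, had 3970, 4271 and 4735 in wild type and 6098, 5648 and 5748 in tfIIfα2. Its groups were apart as well, and it rose per all counts (log2 0.58 ± 0.15 SE, adjusted p = 0.032) but missed the threshold per plastid count (0.43 ± 0.13, adjusted p = 0.058). ndhI and ndhA lie in a unit of 7 genes that runs from ndhH to ndhD. Along that unit the log2 fold changes per plastid count were -0.07 for ndhH, 0.43 for ndhA, 0.46 for ndhI, 0.11 for ndhG, 0.18 for ndhE, 0.19 for psaC and 0.18 for ndhD. ndhI was called on that scale in edgeR, while DESeq2 with the block called both ndhI and ndhA (adjusted p = 0.025 and 0.028), and with a minimum of 10 CPM edgeR called ndhA (0.041) and not ndhI. The differences between members of the unit were not tested.

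The other ndh genes lie in other parts of the genome and were close to the plastid total. ndhJ, ndhK and ndhC, which form a unit of their own, had log2 fold changes of 0.00, 0.05 and -0.04 per plastid count, and the copies of ndhB -0.05 and -0.06. All 12 ndh entries were above 0 when scaled to all counts (median 0.23), but 7 of 12 were when scaled to plastid counts (median 0.08), and 8 of 12 when total counts of all genes without a scaling factor were used (median 0.11). The direction of ndhJ, ndhC, ndhB and ndhH therefore depended on the scale, and none of them was called.

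The genes of the photosystems and their neighbours were near the plastid total. psaA and psaB encode the reaction centre of photosystem I, and with rps14 they form 1 unit. psaA had 46470, 45351 and 45209 plastid CPM in wild type and 48585, 48404 and 46524 in tfIIfα2. psaB had 49355, 47750 and 49008 against 50708, 50914 and 49396. In both genes the groups were apart by a narrow margin, and neither passed the test. The psa median was 0.07 log2 over 5 genes, with psaI highest (0.19) and psaJ, a small subunit, lowest at -0.39 ± 0.12 (SE, adjusted p = 0.062 in edgeR and 0.045 in DESeq2, both with the block).

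Of the 15 psb genes, 11 were below 0 per plastid count (median -0.15) and 7 per all counts (median 0.00). psbN, needed for assembly of photosystem II and read from the strand opposite to its neighbours psbT and psbH, was the one called in the main edgeR fit. It had 879, 823 and 692 plastid CPM in wild type and 629, 585 and 493 in tfIIfα2. The groups were apart, and the 3 pairs gave -0.48, -0.49 and -0.49 on the log2 scale. The fitted value was -0.49 ± 0.11 (SE, adjusted p = 0.024 with the block and 0.13 without it, in edgeR). psbJ, psbL and psbF, small subunits that share a unit with psbE, had -0.39, -0.25 and -0.35, and none was called in the main edgeR fit. DESeq2 with the block called psbJ lower (adjusted p = 0.043), as did edgeR with a minimum of 10 CPM (adjusted p = 0.043). Per kilobase of coding sequence, among the 80 protein genes with a coding length, psbA (187627 ± 22694 CPM per kb, SD, n = 3) and rbcL (101861 ± 11290) ranked highest in wild type. psbJ (18281 ± 1234), psbF (17130 ± 2572) and psbL (16590 ± 1773) came next, followed by rps14 (15753 ± 2449). Neighbours in this order from psbJ to rps14 did not differ beyond their spread. The coding lengths of psbJ, psbF and psbL are only 117 to 123 bases, and how far so short a length raises this measure was not tested. ndhF stood 74th of 80 genes with a coding length, at 401 ± 93.2 CPM per kb, and rose from a low level.

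In the pet group, petN, a small subunit of the cytochrome b6f complex, fell per plastid count. It had 952, 770 and 854 plastid CPM in wild type and 700, 643 and 581 in tfIIfα2, groups that did not overlap, with a log2 fold change of -0.42 ± 0.12 (SE, adjusted p = 0.046 in edgeR). petG was the highest of the group at 0.34 ± 0.19 and was not called. No atp gene passed in edgeR: atpI was lowest at -0.38 ± 0.13 (adjusted p = 0.071, and 0.048 with a minimum of 10 CPM), with groups that did not overlap, and atpH highest at 0.05 ± 0.21. ccsA, needed to attach heme to cytochromes, had 756, 703 and 791 against 583, 544 and 512 and fell by 0.46 (SE 0.12, adjusted p = 0.035 in edgeR). clpP, a subunit of the plastid protease, had 4026, 3562 and 3938 against 4438, 4136 and 4503, with groups apart and no call on either scale in edgeR. DESeq2 with the block called it higher per all counts (log2 0.34, adjusted p = 0.046).

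The polymerase genes were below 0 on both scales in all 4 cases. rpoA had 1879, 1605 and 1855 plastid CPM in wild type and 1400, 1208 and 1228 in tfIIfα2. Every mutant library was below every wild-type library, and rpoA fell by 0.48 log2 per plastid count (SE 0.12, adjusted p = 0.032 with the block and 0.098 without it, in edgeR). Per all counts its log2 fold change was -0.33 ± 0.13 (adjusted p = 0.10), and with TMM factors over the plastid genes -0.30 (adjusted p = 0.19), neither called. rpoB had 2245, 1579 and 1576 against 1796, 1530 and 1358. Here wild-type replicate 1 stood above the rest and the groups overlapped (log2 -0.19 ± 0.12, adjusted p = 0.28). rpoC1 (-0.24 ± 0.12) and rpoC2 (-0.28 ± 0.13) shared that pattern, overlapped and were not called. rpoA lies in a unit with ribosomal protein genes, whereas rpoB, rpoC1 and rpoC2 share a unit of their own.

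**Figure D3:**
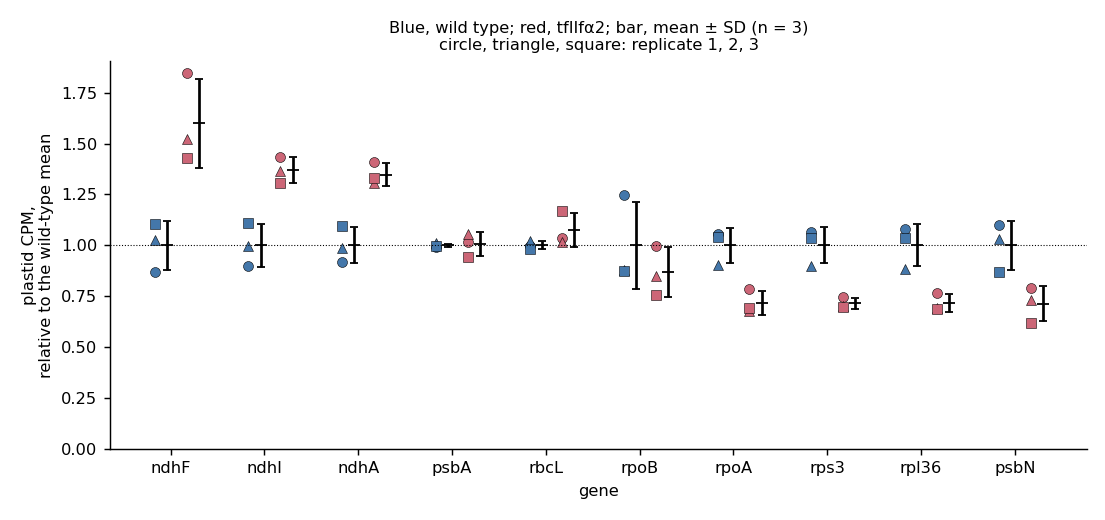
Plastid CPM of 10 plastid genes (x axis) in each total RNA library, relative to the wild-type mean of the gene (y axis, from 0, no unit). Blue symbols are wild type, red symbols tfIIfα2, with circle, triangle and square for replicates 1, 2 and 3, and bars are the mean ± SD of 3 libraries; ndhF, ndhI and ndhA are apart upward, rpoA, rps3, rpl36 and psbN apart downward, and psbA, rbcL and rpoB overlap.

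The transcription unit with the most falls among those examined runs from rpl23 to rpoA and encodes proteins of both ribosomal subunits and the polymerase alpha subunit. Its 13 entries, with rpl23 and rpl2 listed for each copy of the repeat, were all below 0 per plastid count (median -0.45, from -0.62 to -0.33). Of these 9 fell, both copies of rpl23 among them, where 15.9% of all genes tested were lower on that scale. The median over all 124 plastid genes tested was -0.19, and 90 of these were below 0. Per all counts the 13 entries were again all below 0 (median -0.31), and the 2 copies of rpl23 fell. All 13 stayed below 0 under each other scaling tried and in each of the 3 pairs, where the pair medians were -0.44, -0.36 and -0.53 per plastid count. With TMM factors taken over the plastid genes the median was -0.27 and no entry was called, and with psbA and rbcL left out of the plastid total it was -0.37 with 2 calls. The number called was 0 without replicate 1, 3 without replicate 2 and 12 without replicate 3, with no all-gene share given in these settings. The median stayed between -0.49 and -0.42 in them. The unit was delimited from textbook gene order after the values were seen. Its entries share a transcription unit and the repeat copies share reads, so they do not count as 13 independent measurements.

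Within the unit, rpl23, for a protein at the exit tunnel of the large subunit, was lowest. Its entry ATCG00840 had 610, 513 and 603 plastid CPM in wild type and 400, 364 and 368 in tfIIfα2, and the log2 fold change was -0.61 ± 0.11 (SE, adjusted p = 0.014 with the block and 0.063 without it, in edgeR). The copy ATCG01300 had 599, 515 and 604 against 389, 367 and 363 (-0.62 ± 0.11), but the entries share reads: over 8 repeat pairs with at least 1000 counts, rps12 left out, the ratio between copies was 0.963 to 1.09, so the pair counts as 1 measurement. For rps12, whose gene is split, the ratio was 0.582 to 0.629. rps3, for a protein at the mRNA entry of the small subunit, had 3221, 2719 and 3142 against 2262, 2120 and 2112. Its groups did not overlap, and it fell by 0.48 (SE 0.12, adjusted p = 0.035). It overlaps rpl22 (-0.42) on the same strand. rpl36, another large-subunit protein, had 600, 491 and 575 against 426, 385 and 381 and fell by 0.48 (SE 0.11, adjusted p = 0.027).

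Ribosomal protein genes elsewhere were uneven. rpl33, which is read from a unit with rps18, had 643, 503 and 575 against 438, 383 and 391 and fell by 0.50 per plastid count (SE 0.11, adjusted p = 0.023 in edgeR). In contrast rpl20 was at 0.07 ± 0.11, rps14 at 0.05 ± 0.13, both entries of rps7 at -0.02, and the rps12 entry ATCG00065 at 0.19 ± 0.11, none called in edgeR on either scale. With RLE size factors the rps12 entry was called higher per all counts (0.35, adjusted p = 0.048). Over the groups, 6 of 11 rpl entries, 2 of them the copies of rpl23, and 3 of 15 rps entries fell per plastid count and none rose, where 15.9% of all genes tested were lower and 3.9% higher. The rpl median was -0.41 and the rps median -0.21 per plastid count, and -0.27 and -0.07 per all counts. 2 rpl entries and 3 rps entries were above 0 per plastid count.

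**Figure D4:**
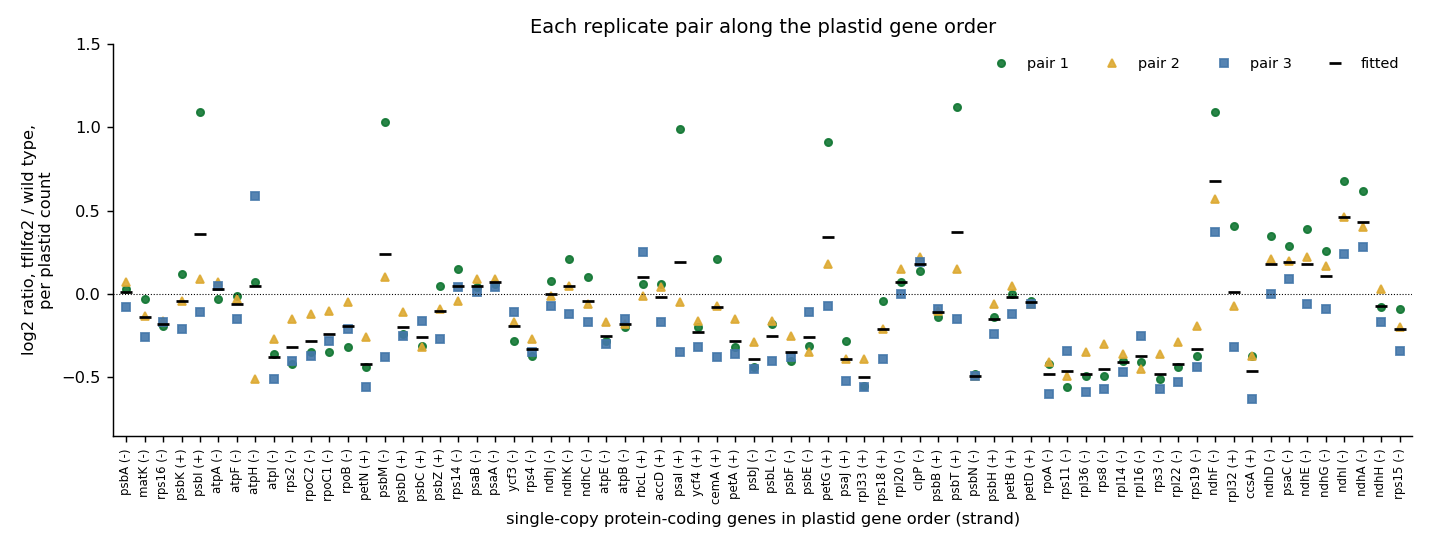
Log2 ratio of tfIIfα2 to wild type per plastid count (y axis) for single-copy protein-coding genes in the order of the plastid genome (x axis, evenly spaced, strand in brackets). Green circles, yellow triangles and blue squares are the pairs of replicates 1, 2 and 3 and black dashes the fitted value; the stretch from rpoA to rps19 lies below 0 in all pairs, ndhF, ndhI and ndhA lie above 0 in all pairs, and psbI, psbM, psaI, petG and psbT stand out in pair 1 alone.

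Transfer RNA genes took 0.655% to 0.748% of plastid counts. Of 34 tested, 4 fell per plastid count and none rose (median -0.27), a share below the 15.9% of all genes that were lower on that scale. trnS, ATCG00370, had 61.0, 74.1 and 67.3 plastid CPM in wild type and 52.0, 36.4 and 29.5 in tfIIfα2 and gave the lowest value, -0.81 ± 0.18 (SE, adjusted p = 0.024 with the block and 0.10 without it, in edgeR). Its groups did not overlap, but replicate 1 of tfIIfα2 was close to wild type. The other trnS genes, ATCG00090 and ATCG00290, had log2 pair values from -0.43 to -0.01, with groups that overlapped. trnW had 113, 135 and 139 reads against 95, 91 and 55 and fell by 0.78 (SE 0.19, adjusted p = 0.030). trnG, ATCG00310, had 14.5, 11.7 and 11.7 plastid CPM against 9.87, 8.09 and 8.72 and fell on both scales in edgeR with the block. DESeq2 with the block did not call it (adjusted p = 0.29 per all counts and 0.089 per plastid count), nor did edgeR without the block or with TMM over the plastid genes. trnL, ATCG00400, was the highest of the transfer RNAs with at least 100 counts (0.10 ± 0.12, not called).

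Ribosomal RNA was nearly absent from the total RNA counts. All 8 entries together had 90, 86 and 55 counts in the wild-type and 147, 166 and 79 in the tfIIfα2 libraries. Both entries of the 16S gene passed, with 32, 27 and 23 counts against 62, 72 and 28 for ATCG00920 and 41, 34 and 17 against 60, 72 and 34 for ATCG01210. They rose by 0.85 ± 0.24 and 0.77 ± 0.21 log2 per plastid count (SE, adjusted p = 0.045 and 0.046 in edgeR), and DESeq2 with the block called neither on either scale. These are copies of 1 sequence, their groups overlapped per plastid count, and they rest on few counts. The kit depletes ribosomal RNA, and the handling of reads that map more than once is not given. The part of either in these counts was not tested. The share of ribosomal RNA in plastid counts was higher in tfIIfα2 in 3 of 3 pairs (exact sign-flip p = 0.25, the smallest possible).

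Some of the shortest genes depended on 1 pair. psbI, psbM, psbT, psaI and petG, which encode small subunits of the photosystems or of cytochrome b6f and have coding lengths of 102 to 114 bases, had pair values of 0.91 to 1.12 log2 in pair 1 and of -0.38 to 0.18 in pairs 2 and 3. psbT had 1032, 1534 and 1998 plastid CPM in wild type and 2236, 1702 and 1802 in tfIIfα2. ORF31, described in the deposited table as an electron carrier, had 160, 253 and 286 against 639, 307 and 301 and gave 2.00, 0.28 and 0.07. In these genes wild-type replicate 1 was the lowest and tfIIfα2 replicate 1 the highest library. None was called with all 3 pairs on either scale, and without replicate 3 all 6 rose per plastid count. Scaling to the totals of nuclear genes called psbI (0.45), petG (0.43), psbT (0.46) and ORF31 (0.85) higher, and ORF31 was also called per all counts with no count filter (0.90, adjusted p = 0.037). petN (90 bases), psbL (117) and rpl36 (114) are as short and were below 0 in each pair. Among genes with a coding length of at least 300 bases, 2 rose (ndhF and ndhI) and 7 fell of 55 per plastid count.

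**Figure D5:**
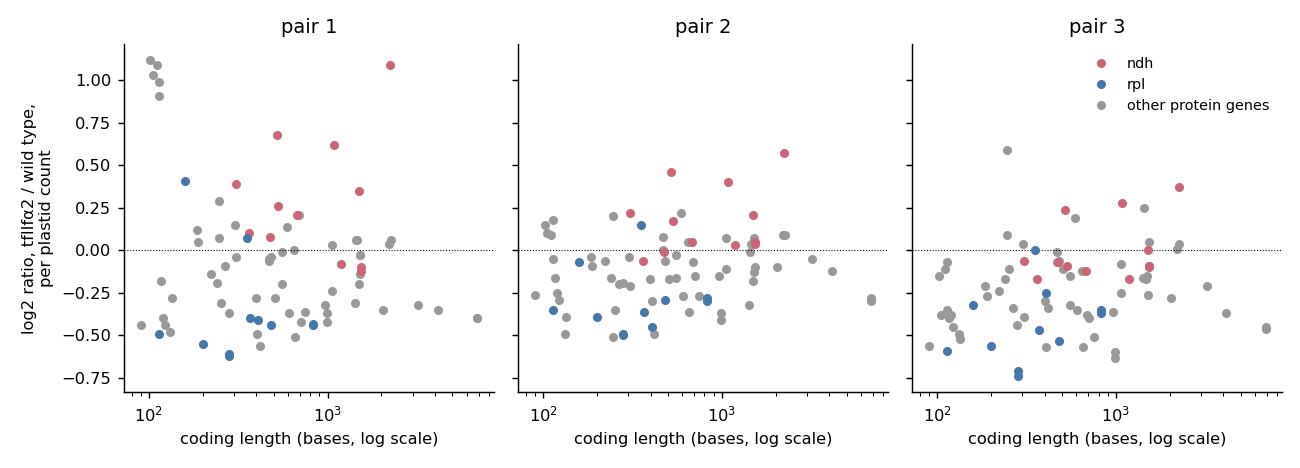
Log2 ratio of tfIIfα2 to wild type per plastid count (y axis) against coding length in bases (x axis, log scale) for the plastid protein genes with a length, 1 panel per replicate pair. Red points are ndh genes, blue points rpl genes and grey points other genes; 5 genes of 102 to 114 bases reach 0.91 to 1.12 in pair 1 and do not pass 0.18 in pairs 2 and 3.

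Genes sorted by the polymerase that mainly reads them, as known from earlier work on plants, are described by counts and medians. The 8 genes read by the plastid-encoded polymerase (psbA, rbcL, psaA, psaB, psbB, psbC, psbD and psbE) had a median log2 fold change of -0.05 per plastid count and no call in either direction in the main edgeR fit. With a minimum of 10 CPM, edgeR called psbC lower (-0.26, adjusted p = 0.043). The 6 entries read by the nuclear-encoded polymerase (rpoB, rpoC1, rpoC2, accD and the copies of ycf2) had a median of -0.26, all below 0, and no call in the main edgeR fit. DESeq2 with the block called the ycf2 entry ATCG01280 lower (-0.38, adjusted p = 0.049). In edgeR with a minimum of 10 CPM, the ycf2 entries ATCG00860 and ATCG01280 were called lower (both -0.38, adjusted p = 0.05 and 0.048). The 8 entries read by both had a median of 0.07 with 3 higher, ndhF and the copies of the 16S gene. Over all genes tested, 3.9% were higher on that scale. The 16S copies share a sequence, have few counts and groups that overlapped, and were not called by DESeq2 with the block. The median over all plastid genes tested was -0.19, and the difference between these lists was not tested.

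Nuclear genes for plastid transcription were lower more often than higher. Of 22 such genes 2 rose and 10 fell when scaled to all counts with the block (median log2 -0.26), where 9.56% and 9.18% of all genes did. Without the block 0 rose and 3 fell, and with it but without replicate 1 the counts were 1 and 4. PTAC3 (AT3G04260), a protein of the polymerase-associated complex, had 49.7, 48.9 and 45.0 CPM in wild type and 29.5, 32.2 and 29.3 in tfIIfα2 and fell by 0.66 (SE 0.08, adjusted p = 0.0020 with the block and 0.026 without it, in edgeR). PTAC6 (AT1G21600), of the same complex, had 38.8, 40.7 and 37.4 against 29.7, 27.9 and 26.2 (-0.48 ± 0.08, adjusted p = 0.0061 and 0.047). Both therefore passed with and without the block, as did the sigma factor gene SIGC (AT3G53920), with 15.1, 16.2 and 16.9 against 11.9, 11.3 and 11.4 CPM (-0.47 ± 0.09, adjusted p = 0.010 and 0.048).

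Another sigma factor gene went the other way. SIGA (AT1G64860) had 43.1, 45.1 and 40.0 CPM in wild type and 61.6, 62.5 and 50.9 in tfIIfα2 and rose by 0.44 (SE 0.08, adjusted p = 0.0087 with the block and 0.080 without it, in edgeR). RPOT3 (AT2G24120), the phage-type polymerase of plastids, had 36.3, 23.9 and 19.4 against 20.2, 20.2 and 13.9. Its groups overlapped, and its fall of 0.53 (SE 0.12, adjusted p = 0.017) was not called without the block (0.24). PTAC14 (AT4G20130), with 35.9, 29.3 and 28.5 against 23.2, 25.4 and 22.6, fell by 0.39 (SE 0.10, adjusted p = 0.027 and 0.12).

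In the mRNA libraries plastid genes took 0.0145% to 0.0252% of counts, and 76 of them could be tested. Their make-up differed from total RNA: rpoB held 15.7% of the plastid counts of wild type there and 0.180% in total RNA, atpB 15% and 1.42%, and rpl32 5.51% and 0.0785%, whereas psbA held 4.60% and 34.8%. The kit and the label of the wild type differ together between these sets, and whether the labels stand for different lines is not given. Effects of kit and line therefore cannot be told apart. Against wild type, tfIIfα1 had 6 plastid genes higher and 0 lower (7.89% and 0.00%), with 18.7% and 19.6% of all 20371 genes called, and at an unadjusted p under 0.05 the counts were 13 and 2 (DESeq2 called 5 and 0, and psbA and psaB were not among the 5). The headers of 2 of the 3 tfIIfα1 columns, here a and b, name the other mutant, tfIIfα2. Their group rests on a run prefix in those headers.

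psbA had 546, 503 and 472 counts in the wild-type mRNA libraries and 2197, 572 and 791 in tfIIfα1 replicate 1, a and b (log2 1.28 ± 0.32 SE, adjusted p = 0.0051 in edgeR, not called in DESeq2). rbcL had 856, 557 and 456 against 2470, 947 and 1055 (1.33 ± 0.26, adjusted p = 0.0011). Both were apart between groups, with replicate 1 far above columns a and b. As the headers of a and b name tfIIfα2, whether this gap lies within 1 genotype cannot be told. Without replicate 1, psbA and rbcL were still higher, at 0.58 and 0.84, and rpl32 was lower at -0.56. In that setting psbC, psaB, psaA and trnL (ATCG00400) were no longer called. Leaving out column a gave 16 higher and leaving out column b 3 higher and 1 lower. ndhF had 26, 11 and 10 counts against 23, 16 and 17 (log2 0.35 ± 0.47 SE, adjusted p = 0.6 in edgeR). These reads are too few to tell whether ndhF differed in tfIIfα1.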

How the data were processed

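The values analysed were the raw counts per gene deposited by the authors, whole numbers for 33602 genes. Per the submitters' processing notes the genome was TAIR10 and the tools were edgeR 3.20.1, Bowtie2 2.2.9 and FastQC 0.11.5, with no roles given. The counting tool, its strand setting and its handling of reads that map more than once are not given in the sources used here. Groups came from the titles. The headers of 2 tfIIfα1 columns name the other allele, and they were placed by their run prefix. Left out were 6 columns of counts that match none of the labelled samples, and 18 normalized columns.

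All genes were fitted in edgeR 4.0.16 (R 4.3.3) with filterByExpr and the quasi-likelihood test, and p-values were adjusted by Benjamini-Hochberg over all genes tested, with a threshold of 0.05. The fit to all counts used TMM factors, and the fit to plastid counts used the plastid total as library size with no further factor. Both had the replicate number as a block, which the correlations over all genes given above bear on. The mRNA fit had none, since 2 of its columns carry no clear replicate number. The SE was obtained by dividing the size of the log2 fold change by the root of its F statistic. The biological coefficient of variation was 0.101 per all counts, 0.118 per plastid count and 0.0827 in the mRNA fit. Tests of shares were exact and two-sided. Only the fit to all counts with the block was tested on simulated data, which had replicate shifts built in. Coding lengths, gene order and strand came from RefSeq TAIR10.1 by symbol, for 80 of 88 protein genes. As the builds differ, coordinates are left out.

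Named genes were the polymerase genes, psbA and rbcL, up to 8 called per direction and scale by p, and the highest and lowest of each group with at least 100 counts. Also named were the 6 protein genes highest per kb of coding sequence and up to 6 called nuclear genes. Others given for their unit or their short coding length were chosen after their values were seen. The members, lists and tests were chosen with earlier results of these data known. Intervals and errors cover these libraries only. Alternatives were other scalings and filters, DESeq2 1.42.0, no block, summed repeat copies and leaving out replicates.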

Additional observations from a re-analysis of the deposited data

How the results depend on the processing

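Among 25 called values of named plastid genes, 280 alternatives gave 189 past the threshold, 91 past it no longer and 0 of opposite sign. Some of these alternatives could hardly move a value, such as leaving ribosomal RNA out of the plastid total or summing repeat copies for single-copy genes. The 189 are therefore not a measure of how firm the calls are. Without the replicate block the plastid genes called were 0 higher and 0 lower on either scale, and the nuclear plastid transcription genes 0 and 3. Over all 18863 genes, 279 were higher and 324 lower per all counts in that setting. The samples were paired by the numbers in their titles. At an adjusted p of 0.01 the counts were 0 and 0 per all counts, 0 and 0 per plastid count, 2 higher in the mRNA fit, and 1 and 2 for the nuclear genes. With coding length of at least 300 bases, chosen after seeing the data, they were 3 and 0, and 2 and 7, fewer genes being counted. At least 10 CPM in 3 libraries gave 3 higher per all counts, 2 per plastid count and 1 nuclear gene. No filter gave 7 lower per all counts and 11 and 2 in the mRNA fit.

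Scaling to total counts of all genes gave 16 lower plastid genes and 1 higher nuclear gene; totals of nuclear genes gave 9 and 12. Per plastid count, TMM over the plastid genes gave 1 lower, leaving psbA and rbcL out of the total, chosen after seeing the data, gave 5 lower, and summed copies gave 2 higher. DESeq2 gave 1 and 4 nuclear genes. Leaving out 1 replicate gave 1 to 18 higher per all counts, 0 to 10 higher and 2 to 34 lower per plastid count, 2 to 16 higher and 0 to 1 lower in the mRNA fit, and 1 to 3 higher and 4 to 9 lower nuclear genes. With 2 pairs left, the spread rests on very few libraries, and the shares over all genes in these settings are not given here. Apart from the scaling and construction named, the cause was not tested. The plastid share and the ribosomal RNA share moved by less than their spread; alternatives were not run for the shares of single gene groups. Low counts limit the ribosomal and most transfer RNA values and the mRNA libraries.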
